A study of Mus musculus with 3 samples.

Results

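Carcinoma cells with a high interferon signature were studied in mouse calvaria, the roof of the skull, under an implanted squamous cell carcinoma. They were chosen by measured values. Barcodes were kept when they showed 500 or more genes and no more than 10% of their UMIs (unique molecular identifiers, counted molecules) were mitochondrial. A kept barcode entered the carcinoma gate under 3 conditions. Krt8 plus Krt18 reached 5 CP10K (UMIs per 10000 UMIs of the cell), Ptprc had 0 UMIs, and Col1a2 plus Col3a1 stayed under 10 CP10K. Cells in this gate were members when Isg15, Ifit1, Ifit3, Rsad2, Cxcl10 and Gbp2 together reached 10 CP10K. The members numbered 146 of 3573 cells in the carcinoma gate and of 25511 barcodes in the series, with 51 in the scratch-negative and 95 in the scratch-positive library. The other 67 and 3360 carcinoma cells are called interferon-low.

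All mice were C57BL/6 and 8 weeks old. The scratch-negative library (named pre-invasive stage by the labels) came from calvaria onto which HNM007 cells, a mouse carcinoma line used as a model of head and neck cancer, had been implanted on intact bone. For the scratch-positive library (named invasive stage) a needle had scraped the periosteum off the bone before implantation. Tissue of both was taken 1 week after implantation with the tumour mass cut off, and the control library came from mice without tumour. Before 10x 3′ capture, live leukocytes (CD45+) and other live cells (CD45-) were pooled 1:1, so their proportions are those of the pool. The number of mice behind a library is not given in the sources used here, and HNM007 is 1 cell line. Each group was 1 library, with no library from scratched bone without tumour, so the scratch, the missing periosteum and invasion cannot be told apart. No difference between libraries could be tested. The intervals given are exact 95% intervals of counting error only.

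Interferons are secreted proteins that warn cells of infection and damage. Type I interferons act through the receptor Ifnar1 and Ifnar2 and factors that include Stat2 and Irf9, which bind the interferon-stimulated response element (ISRE) in promoters. Interferon gamma, made mainly by T and NK cells, acts through Ifngr1 and Ifngr2, through the gamma-activated site (GAS) in promoters, and through the factor Irf1. In tumours this response raises antigen presentation and T-cell attracting chemokines as well as inhibitory ligands such as Cd274 (PD-L1). Isg15, a ubiquitin-like modifier, and the RNA-binding Ifit proteins are antiviral products mostly of the type I response, whereas Gbp2, a guanylate-binding protein, and Cxcl10, a chemokine for CXCR3-bearing T cells, answer to both.

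The promoters of 4 genes of the rule are shown because the members were selected on their transcripts. The sequences are from RefSeq (GRCm38.p6, the assembly that mm10 names), each 250 bases upstream of the RefSeq start and written 5′ to 3′ on the gene's strand. Capitals mark every match, on either strand, to GAAANNGAA, the ISRE core letters. Isg15 lies at chr4:156200819-156201068 (minus strand), Ifit1 at chr19:34640639-34640888 (plus strand), Cxcl10 at chr5:92348890-92349139 (minus strand) and Gbp2 at chr3:142620413-142620662 (plus strand). GENCODE starts Ifit1 and Gbp2 somewhat upstream of the RefSeq start.
Isg15: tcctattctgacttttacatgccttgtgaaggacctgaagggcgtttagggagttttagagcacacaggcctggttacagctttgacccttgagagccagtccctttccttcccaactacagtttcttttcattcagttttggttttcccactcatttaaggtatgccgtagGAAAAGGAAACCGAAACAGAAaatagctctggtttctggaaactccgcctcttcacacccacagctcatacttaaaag
Ifit1: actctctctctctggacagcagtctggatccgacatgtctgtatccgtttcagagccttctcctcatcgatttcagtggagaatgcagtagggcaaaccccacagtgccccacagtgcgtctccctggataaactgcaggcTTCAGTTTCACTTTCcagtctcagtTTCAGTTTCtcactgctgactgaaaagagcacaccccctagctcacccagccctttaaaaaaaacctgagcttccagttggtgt
Cxcl10: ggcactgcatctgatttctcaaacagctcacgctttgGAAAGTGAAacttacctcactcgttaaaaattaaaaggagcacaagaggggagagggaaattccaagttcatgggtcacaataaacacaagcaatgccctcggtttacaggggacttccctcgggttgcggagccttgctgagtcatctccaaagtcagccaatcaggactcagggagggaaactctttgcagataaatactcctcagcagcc
Gbp2: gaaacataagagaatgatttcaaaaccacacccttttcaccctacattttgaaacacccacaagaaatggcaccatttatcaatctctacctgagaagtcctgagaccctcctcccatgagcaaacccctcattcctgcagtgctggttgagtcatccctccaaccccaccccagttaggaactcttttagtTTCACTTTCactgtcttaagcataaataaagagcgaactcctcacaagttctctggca
Isg15 and Ifit1 each held 3 matches, in Isg15 as 1 overlapping run whose first base lay 78 bases before the start, and in Ifit1 on the opposite strand, the farthest beginning 109 bases before it. Cxcl10 held 1 match, 213 bases before the start, and Gbp2 held 1 on the opposite strand, 58 bases before it. GENCODE starts Gbp2 at chr3:142620602, so the Gbp2 match is upstream of the RefSeq start but downstream of the GENCODE start. Over windows that also take in 50 bases after the start, all 6 genes of the rule held a match. The share was 9.76% of 27025 genes, each counted when any of its RefSeq windows held one, and 8.56% of 32851 single windows. None of the 6 held TTCNNNGAA, the GAS core letters (9.55% of genes, 8.30% of windows), which says only that these letters are not in these windows.

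The carcinoma label was checked on other markers. Krt7, a simple-epithelial keratin, was at 906 CPM (UMIs per 1000000 of the group's summed UMIs) in scratch-negative members and 935 CPM in scratch-positive members. Krt14 was at 85.8 and 58.5 CPM. Krt5, a basal squamous keratin, had 0 UMIs in both, and the epithelial adhesion genes Epcam (1.98 and 2.37 CPM) and Cdh1 (4.23 and 3.23 CPM) were low. All 6 endothelial markers were at 0, and 7 of 10 T- and NK-cell markers were at 0 in each library. The 10 neutrophil markers summed to 1998 CPM in scratch-negative and 883 CPM in scratch-positive members, beside 2254 and 946 CPM in interferon-low cells, against 345467 and 99081 CPM in barcodes with a Ptprc UMI. The 10 macrophage markers summed to 118 and 144 CPM in members and to 105 and 109 CPM in interferon-low cells, with Adgre1 at 0 in members of both libraries. In the other direction, Krt8 was at 40.9 CPM in scratch-negative and 472 CPM in scratch-positive barcodes with a Ptprc UMI, and the part of free RNA or doublets in the results was not tested. The control library had 1 of 6577 kept barcodes in the carcinoma gate and 0 members (Clopper-Pearson interval of the member share 0 to 0.0561%).

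Members made up very different shares of the carcinoma cells in the 2 libraries. In scratch-negative they were 51 of 118, or 43.2% (Clopper-Pearson interval 34.1 to 52.7%). In scratch-positive they were 95 of 3455, or 2.75% (2.23 to 3.35%). With every cell thinned to 5000 UMIs the shares were 45.0% (50 of 111 cells, 7 shallower cells left out) and 2.60% (87 of 3348, 107 left out). The cause of the difference in shares was not tested. In other cells the same 6-gene sum reached 10 CP10K in 14.3% and 12.1% of barcodes with a Ptprc UMI, in that order. Among stromal barcodes, defined by collagen and without Ptprc or keratin, it did so in 21.7% and 11.6%. The carcinoma gate itself held 1.45% of kept barcodes in scratch-negative and 38.0% in scratch-positive, so the scratch-negative share rests on few cells.

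**Figure D1:**
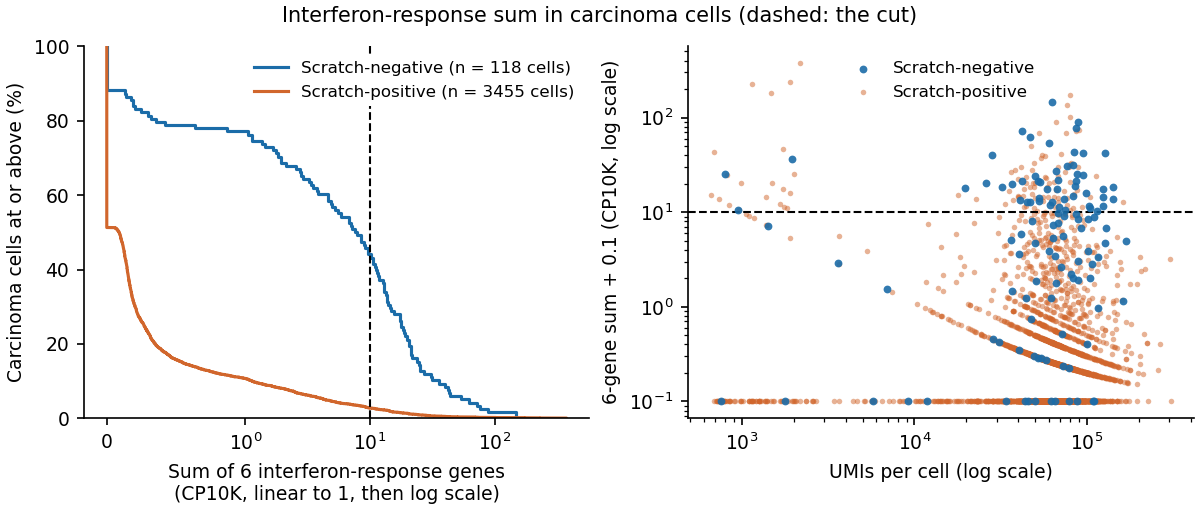
Left, the share of carcinoma cells (percent) at or above each value of the 6-gene sum (CP10K) in the scratch-negative (118 cells) and scratch-positive (3455 cells) libraries. Right, the same sum plus 0.1 against UMIs per cell, 1 point a cell, both axes logarithmic, with the dashed line at 10 CP10K. The scratch-negative curve crosses the line at 43.2% and the scratch-positive curve at 2.75%, and a group of shallow scratch-positive cells stands far left among the members.

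The cut did not fall in a gap. In scratch-negative, 8 members lay between 10 and 12 CP10K and 6 interferon-low cells between 8 and 10. In scratch-positive the numbers were 15 and 24. The lowest member values were 10.1 and 10.0 CP10K and the highest values just outside were 9.69 and 9.80 CP10K. The median member sum was 18.9 CP10K in scratch-negative and 18.6 CP10K in scratch-positive.

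Most members were deep. Their median was 66982 UMIs in scratch-negative and 49934 in scratch-positive, against 65224 and 63745 in interferon-low cells. However, 20 of the 95 scratch-positive members had fewer than 10000 UMIs, and 16 of these also carried the immune genes Tyrobp, Fcer1g, Coro1a and Laptm5 at 5 CP10K or more together. The 4 highest 6-gene sums of that library (183 to 376 CP10K) were in such barcodes, with 1141 to 2182 UMIs and 119 to 158 CP10K of immune genes. In all, 17 scratch-positive members and 1 scratch-negative member carried these immune genes at that level. In interferon-low cells they were carried by 101 of 3360 and 2 of 67. The shallow barcodes hold few of the summed UMIs, and for some levels and medians the value without the immune-gene barcodes is also given. The 2 libraries shared 30 barcode sequences, none of them a member's.

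The 6 genes of the rule were summed over cells as CPM, as a description of what was selected. Cxcl10 was at 992 CPM (959 to 1025) in scratch-negative members and 50.5 CPM in interferon-low cells of that library. In scratch-positive it was at 1444 CPM (1409 to 1479) and 9.70 CPM. Gbp2 was at 978 and 206 CPM in scratch-negative and at 833 and 17.4 CPM in scratch-positive. For this gene the members of the 2 libraries were closer than the interferon-low cells, but the same cut selected on it in both. Isg15 was at 527 and 56.2 CPM in scratch-negative and at 445 and 10.4 CPM in scratch-positive. Ifit1 stood at 75.1 CPM in scratch-negative and 116 CPM in scratch-positive members, with 1.13 and 0.353 CPM in interferon-low cells. Ifit3 was at 113 and 190 CPM in members, with 1.13 and 0.478 CPM in interferon-low cells. Under a keratin minimum of 20 CP10K its order between the libraries turned (log2 ratio -0.20). Rsad2, the antiviral enzyme viperin, was at 5.93 CPM (21 UMIs) in scratch-negative and 37.9 CPM (176 UMIs) in scratch-positive members. A single scratch-positive member held 90.3% of those Rsad2 UMIs, and without it the level was 3.72 CPM.

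Members differed in which of these genes carried them past the cut. Gbp2 had the most UMIs of the 6 genes in 26 of 51 scratch-negative members, Cxcl10 in 19 and Isg15 in 6. In scratch-positive the leading gene was Cxcl10 in 39 of 95 members, Gbp2 in 33, Isg15 in 20, Rsad2 in 2 and Ifit1 in 1. Cxcl10 plus Gbp2 alone reached 10 CP10K in 42 scratch-negative and 72 scratch-positive members. Isg15, Ifit1, Ifit3 and Rsad2 together did so in 8 and 28. Ifit1 had a UMI in 24 of 51 and 32 of 95 members, whereas Gbp2 had one in 50 and 81. All these counts include the shallow and immune-gene barcodes. Fewer than 10 UMIs of the 6 genes together were found in 3 scratch-negative and 16 scratch-positive members. The lowest had 1, so a leading gene can rest on very few UMIs. The 2 arms of the rule were only loosely related across members of at least 10000 UMIs, with Spearman's rho of 0.27 over 48 scratch-negative cells and -0.16 over 75 scratch-positive cells. These cells share a library, and the rule's sum ties the arms against each other.

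Genes outside the rule were compared between members and interferon-low cells of the same library. Since the rule selected on this contrast, the counts are descriptions. A gene counted as higher or lower at 1.5-fold with at least 50 UMIs in both groups together. In scratch-negative 634 of 7895 genes (8.03%) were higher in members and 236 (2.99%) were lower. In scratch-positive 1216 of 12562 (9.68%) were higher and 1189 (9.47%) lower. Centred on the median of all genes, the scratch-negative split was 497 higher and 298 lower. In scratch-positive, members held far fewer UMIs than interferon-low cells, and with at least 20 UMIs expected in the smaller group 347 of 8500 genes were higher (4.08%) and 167 lower (1.96%). Of 7895 genes that could be called in both libraries, 229 (2.9%) were higher in both and 34 (0.431%) were lower in both. The shared higher genes were 36.1% of the scratch-negative and 18.8% of the scratch-positive list, and the shared lower genes 14.4% and 2.86%. The median log2 ratio over all genes was 0.071 in scratch-negative and -0.012 in scratch-positive.

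**Figure D2:**
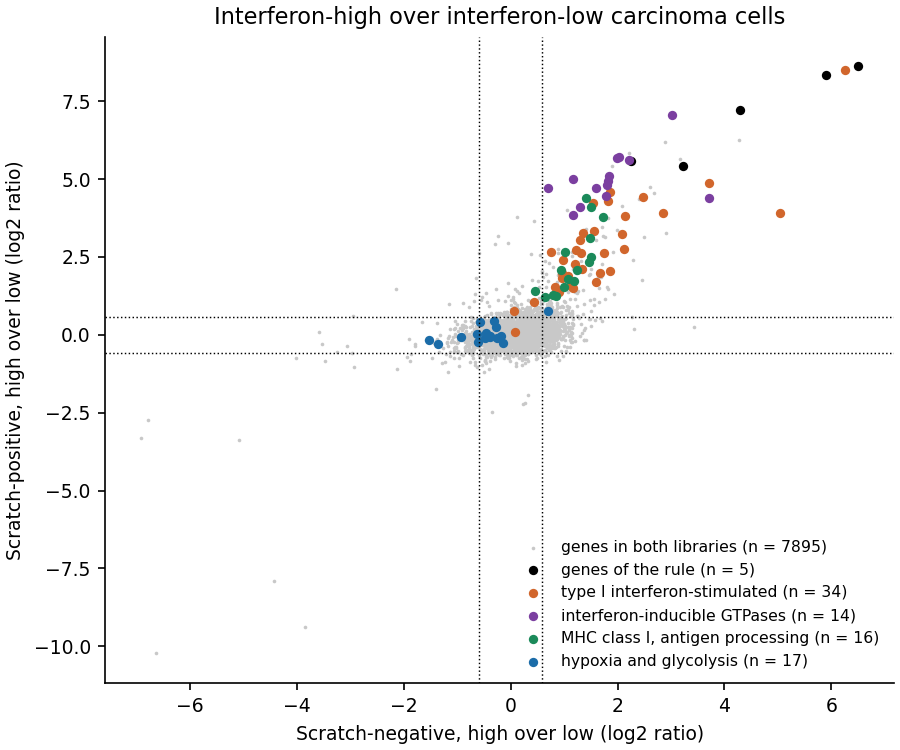
Log2 ratio of interferon-high over interferon-low carcinoma cells in the scratch-negative (x axis) and scratch-positive (y axis) libraries, for 7895 genes with at least 50 UMIs in each (grey) and for 5 gene lists (colours). Dotted lines mark 1.5-fold. The interferon-stimulated, GTPase and MHC class I genes lie up and to the right with larger ratios in scratch-positive, while hypoxia genes lie near 0 or to the left.

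Interferon-stimulated genes of the type I response outside the rule were higher as a group. In scratch-negative 31 of 34 members of the list that had enough UMIs were higher and 0 lower, with a median log2 ratio of 1.34. In scratch-positive 40 of 42 were higher and 1, Epsti1, was lower (5 UMIs in members), with a median of 2.61. Of 51 list genes in the files, 17 and 9 had too few UMIs to be counted, among them Mx1, Oas2 and Oas3. The larger scratch-positive ratios came with lower levels in its interferon-low cells rather than higher levels in its members. Bst2 (tetherin, which holds virions at the membrane) was at 970 CPM in scratch-negative members and 562 CPM in scratch-positive members, and at 414 and 85.5 CPM in interferon-low cells. Zbp1, a sensor of Z-form nucleic acid that can trigger necroptosis, was at 282 and 179 CPM in members and 96.5 and 9.59 CPM in interferon-low cells. Ifitm3, which blocks virus entry at endosomes, was at 3064 and 2435 CPM in members and 1726 and 849 CPM in interferon-low cells.

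The same held for genes named by rank, the 15 with the largest ratio in whichever library was smaller. Oasl2, of the oligoadenylate synthetase-like family, was at 68.6 CPM in scratch-negative and 54.0 CPM in scratch-positive members, 5.63-fold (4.18 to 7.71) and 21.3-fold (18.3 to 24.8) above interferon-low cells. Irf7, the factor that amplifies type I interferon output, was at 36.4 and 42.6 CPM, 5.38-fold and 20.5-fold higher. Rtp4, a chaperone-like interferon-induced protein, was at 79.1 and 81.1 CPM, 3.65-fold and 24.2-fold higher. Parp14, an ADP-ribosyltransferase, was 4.44-fold and 14.2-fold higher, the ubiquitin ligase Dtx3l 4.38-fold and 6.76-fold, and the ligase Herc6 4.28-fold and 9.44-fold. The DNA-sensor family members Ifi205 (3.79-fold and 6.34-fold) and Ifi203 (3.56-fold and 19.8-fold) were also among them. These values are spread over members: no single cell held more than 22.5% of the Irf7 UMIs, and Oasl2 had a UMI in 46 of 51 and 70 of 95 members. Ifit2 was not spread in this way. It was at 18.9 CPM in scratch-negative members, but 1 cell held 88.1% of its UMIs and the level without that cell was 2.30 CPM.

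Interferon-inducible GTPases, which attack the membranes of intracellular parasites and respond strongly to interferon gamma, were higher in every case with enough UMIs. The count was 14 of 14 in scratch-negative (median log2 ratio 1.81) and 16 of 16 in scratch-positive (4.88). Iigp1 was at 343 CPM in scratch-negative members against 74.0 CPM in interferon-low cells, and at 313 against 6.44 CPM in scratch-positive. Igtp was at 339 against 112 CPM and at 272 against 10.4 CPM. The interferon-low groups differ in makeup: 28 of 67 cells in scratch-negative and 3086 of 3360 in scratch-positive had a 6-gene sum under 1 CP10K. In those cells Igtp was at 11.3 CPM in scratch-negative and 3.55 CPM in scratch-positive, and from 5 to 10 CP10K it was at 193 and 184 CPM. Among guanylate-binding proteins, Gbp3 was at 234 and 170 CPM in members, Gbp4 at 195 and 115 CPM, Gbp7 at 117 and 83.9 CPM, and Gbp9 at 39.8 and 36.4 CPM. Gbp6 (38.4 and 13.6 CPM), Gbp8 (22.3 and 7.10 CPM), Gbp10 (15.5 and 8.39 CPM) and Gbp5 (11.0 and 8.39 CPM) were also found in members. Irgm1 was at 234 and 186 CPM, Irgm2 at 32.2 and 24.1 CPM, Ifi47 at 78.8 and 71.4 CPM, Tgtp1 at 25.4 and 24.3 CPM, and Tgtp2 at 14.4 and 9.68 CPM in members. Gvin1 was at 5.08 and 3.44 CPM, and it and Gbp5 had too few UMIs to be counted in scratch-negative. Igtp was at 30.4 and 21.6 CPM in barcodes with a Ptprc UMI, below the members in both libraries. Several of these genes (Gbp6 and Gbp10, Tgtp1 and Tgtp2, and also Ifit3 and Ifit3b) are near copies of each other, so the split of reads between them is uncertain.

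Genes that load peptides onto MHC class I, the display read by CD8 T cells, were higher too. In scratch-negative 15 of 16 were higher (median log2 ratio 1.12) and in scratch-positive 18 of 18 (2.08). B2m, the light chain, was at 906 CPM in scratch-negative members against 385 CPM in interferon-low cells, and at 567 against 135 CPM in scratch-positive. The heavy chain H2-K1 was at 353 against 127 CPM and at 210 against 41.7 CPM. The immunoproteasome subunit Psmb8 was at 298 against 90.2 CPM and at 152 against 11.0 CPM. The peptide transporter subunit Tap1 was at 161 against 60.9 CPM and at 115 against 5.51 CPM. Nlrc5, the transactivator of this set, was at 13.8 against 3.16 CPM and at 8.39 against 0.478 CPM. The 1 gene that stayed within 1.5-fold in scratch-negative was Erap1, a peptide-trimming enzyme, at 25.4 against 18.5 CPM. Of 6 MHC class II genes, all 4 with enough UMIs in scratch-negative and all 6 in scratch-positive were higher. Cd74, the invariant chain, was at 33.6 against 14.4 CPM in scratch-negative and 31.2 against 12.2 CPM in scratch-positive, below the 386 and 757 CPM of barcodes with a Ptprc UMI.

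The factors that carry the signal were higher and most receptors were not. Irf1 was at 507 and 518 CPM in members against 274 and 76.2 CPM in interferon-low cells. Of the signalling factors, 10 of 13 were higher in scratch-negative and 13 of 17 in scratch-positive, with 0 lower in either. Negative regulators were among them: Socs1 was 2.23-fold and 2.73-fold higher and Usp18 6.38-fold and 27.3-fold. Of the receptors and kinases only Jak2 was past 1.5-fold, 1 of 7 in scratch-negative and 1 of 8 in scratch-positive. Ifngr1 was at 24.8 and 26.0 CPM in members and 28.4 and 25.4 CPM in interferon-low cells. Ifnar1 was at 11.0 and 12.7 CPM against 13.3 and 11.4 CPM. Members had 0 UMIs of all 21 interferon genes in the files in both libraries, so none was detectable at this depth. Ifng had 656 UMIs (4.90 CPM) in scratch-negative and 1591 UMIs (11.3 CPM) in scratch-positive barcodes with a Ptprc UMI, and Ifnb1 had 1 and 13.

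Of the checkpoint ligands and inhibitors, 4 of 8 were higher and 1 (Nt5e) lower in scratch-negative members, and 6 of 11 were higher and 1 (Cd86) lower in scratch-positive. Cd47, the ligand that restrains phagocytes, was at 464 against 334 CPM in scratch-negative, within 1.5-fold, and at 412 against 225 CPM in scratch-positive. Cxcl9, the CXCR3 ligand induced by interferon gamma, was at 24 CPM (85 UMIs) in scratch-negative members against 1.13 CPM in interferon-low cells, and at 48.4 against 0.626 CPM in scratch-positive. Its UMIs came from 10 and 13 members. Cd274 (GRCm38 chr19:29367455-29388095) headed the genes ranked in both libraries. It was at 42.6 CPM against 6.54 CPM in scratch-negative, 6.52-fold (4.36 to 10.1), and at 27.3 CPM (22.8 to 32.5) against 1.17 CPM in scratch-positive, 23.4-fold. A Cd274 UMI was found in 35 of 51 and 43 of 95 members. Barcodes with a Ptprc UMI held Cd274 at 33.2 and 22.2 CPM. Ido1, the tryptophan-degrading enzyme, had 31 UMIs in scratch-negative and 6 in scratch-positive members, too few to be counted. Serpinb9, an inhibitor of granzyme B, was 1.62-fold and 3.32-fold higher, and the galectin Lgals9 2.61-fold and 1.99-fold.

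Other chemokines and inflammatory genes differed between the 2 libraries. Outside the rule, 3 of 9 chemokines were higher in scratch-negative members (Cxcl9, Cx3cl1 and Cxcl5) and 11 of 12 in scratch-positive. The scratch-positive median log2 ratio of 2.08 was 1.42 without barcodes carrying immune genes. Ccl2, which attracts monocytes, was at 576 against 385 CPM in scratch-negative and at 708 against 181 CPM in scratch-positive. The neutrophil attractant Cxcl5 was at 559 against 323 CPM and at 407 against 89.5 CPM. Cxcl2 and Il1b stood high in scratch-positive members (241 and 137 CPM), but without the 17 barcodes carrying immune genes they were at 32.5 and 8.29 CPM, against 23.1 and 12.9 CPM in interferon-low cells treated alike. Ccl5 was at 33.4 CPM in scratch-positive members, with 75.5% of its UMIs in 1 cell and 8.31 CPM without it. NF-kB response genes were higher in 6 of 18 (scratch-negative) and 15 of 22 (scratch-positive), including the adhesion receptor Vcam1 (3.14-fold and 2.81-fold) and the antioxidant enzyme Sod2 (1.91-fold and 1.62-fold). The 15 include Il1b, Il1a and Tnf, and the 11 chemokines include Cxcl2 and Cxcl3. Neither count was taken again without the barcodes carrying immune genes. Among cell death genes, 6 of 13 and 8 of 14 were higher. The death receptor Fas was at 33.6 against 6.77 CPM in scratch-negative and 28.2 against 5.37 CPM in scratch-positive. The pore-forming Gsdmd was 1.68-fold and 2.33-fold higher, and Mlkl, the executioner of necroptosis, 1.66-fold and 2.12-fold.

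Nucleic acid sensors were mostly higher, with 6 of 7 in scratch-negative and 6 of 8 in scratch-positive. Tmem173 (STING) was 1.75-fold and 1.63-fold higher and the double-stranded RNA receptor Tlr3 2.23-fold and 4.74-fold. Mb21d1, which encodes the DNA sensor cGAS, was 1.85-fold higher in scratch-negative and 1.42-fold, under the 1.5-fold line, in scratch-positive.

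Proliferation genes were level between members and interferon-low cells. Of 20 genes 0 were higher in either library, with Ube2c lower in both and Aurka in scratch-positive. Mki67 was at 114 against 104 CPM in scratch-negative and 97.3 against 94.2 CPM in scratch-positive. Per cell, over cells of at least 10000 UMIs, the 20 genes together had a median of 20.3 CP10K in scratch-negative members and 20.6 in interferon-low cells, and 20.02 and 19.9 in scratch-positive. Hypoxia and glycolysis genes went apart between libraries: in scratch-negative 5 of 17 were lower in members (Egln3, Bnip3, Ankrd37, Pgk1 and Pdk1), and in scratch-positive 0 were. Bnip3, a mitophagy receptor induced by low oxygen, was at 54.2 against 139 CPM in scratch-negative and at 23.7 against 28.8 CPM in scratch-positive. Hk2, the first enzyme of glycolysis, was higher in members of both, 1.63-fold and 1.71-fold.

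Few genes were lower in members of both libraries. The 4 haemoglobin genes were among them, with Hbb-bs at 1.41 against 154 CPM in scratch-negative and at 0 UMIs against 5.24 CPM in scratch-positive. The ranked genes follow. For them and the haemoglobin genes, the spread of UMIs over single interferon-low cells was not examined, so 1 cell could carry a level. Phlda2, a growth-restraining imprinted gene, was at 35.3 CPM against 92.9 CPM in scratch-negative and at 35.7 against 119 CPM in scratch-positive, 2.63-fold and 3.33-fold lower. Cldn6, a tight junction protein, was 2.25-fold (23.2 against 52.1 CPM) and 2.31-fold (25.2 against 58.1 CPM) lower. Fam213a was 1.95-fold and 1.99-fold lower, Prss22, a serine protease, 2.19-fold and 1.61-fold, and Flrt3, a cell adhesion protein, 2.11-fold and 1.69-fold. Qrfp, a neuropeptide precursor, was 2.38-fold and 1.83-fold lower, Sapcd2 1.97-fold and 1.68-fold, and Acsbg1 1.63-fold and 1.68-fold, though Acsbg1 in scratch-positive turned (log2 ratio 0.39) with cells weighted equally. Ube2c, a ubiquitin-conjugating enzyme of mitosis, was 1.66-fold and 1.58-fold lower. Csf2 (GM-CSF) was at 2.54 against 43.3 CPM in scratch-negative, 17.04-fold lower, and 5.81 against 9.71 CPM in scratch-positive, and the second turned (log2 ratio 0.23) with a cut of 5 CP10K. Pthlh, the bone-active parathyroid hormone-related protein, was within 1.5-fold, at 185 against 224 CPM and 198 against 272 CPM.

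Promoter letters were tallied for the genes that were higher in both libraries. RefSeq windows were found for 170 of these genes outside the rule, and 51 (30%) held the ISRE core letters. Of all genes with a window and at least 50 UMIs in each library, whatever their ratio, 541 of 6263 (8.64%) held them. The GAS core letters were in 31 (18.2%), against 497 (7.94%). Among genes lower in both, 3 of 29 held the first and 1 of 29 the second. The type I list held ISRE letters in 20 of 41 matched genes and GAS letters in 7, and the GTPase list, with 9 of its genes matched, in 8 and 6. A gene with several windows counted when any held the letters. In the promoter of Cd274 the ISRE letters lay on the opposite strand, 76 bases before the start.

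Genes outside the rule were already higher in cells whose 6-gene sum lay below the cut. In scratch-positive, Irf1 was at 63.1 CPM in 3086 cells with a sum under 1 CP10K, 195 CPM in 93 cells from 1 to 2, 223 CPM in 120 cells from 2 to 5 and 277 CPM in 61 cells from 5 to 10. Within the members Irf1 was at 446 CPM from 10 to 20 CP10K (48 cells), 572 CPM from 20 to 50 (35 cells) and 628 CPM above (12 cells). In scratch-negative it was at 119 CPM in 28 cells under 1 CP10K, 386 CPM in 15 cells from 5 to 10, and 477, 540 and 566 CPM in the member bins of 27, 18 and 6 cells. Each Irf1 bin was thus above the one before it in both libraries. Cd274 was higher in each bin than in the one before in scratch-positive. It was at 0.721, 2.54, 5.43 and 14.9 CPM in the 4 interferon-low bins of scratch-positive and at 17.1, 29.1 and 60.5 CPM in its 3 member bins. In scratch-negative, cells under 1 CP10K had 0 Cd274 UMIs and the member bins were at 27.0, 61.5 and 69.8 CPM. Psmb8 was at 232 CPM in scratch-negative cells from 5 to 10 CP10K and 241 CPM from 10 to 20, so cells on the 2 sides of the cut were close. The proliferation genes Top2a and Mki67 were at 210 and 87.6 CPM from 10 to 20 CP10K in scratch-positive and at 484 and 198 CPM above 50. In scratch-negative the same bins had 376 and 144 CPM, then 238 and 62.1 CPM. The bins above 50 CP10K rest on 6 and 12 cells.

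**Figure D3:**
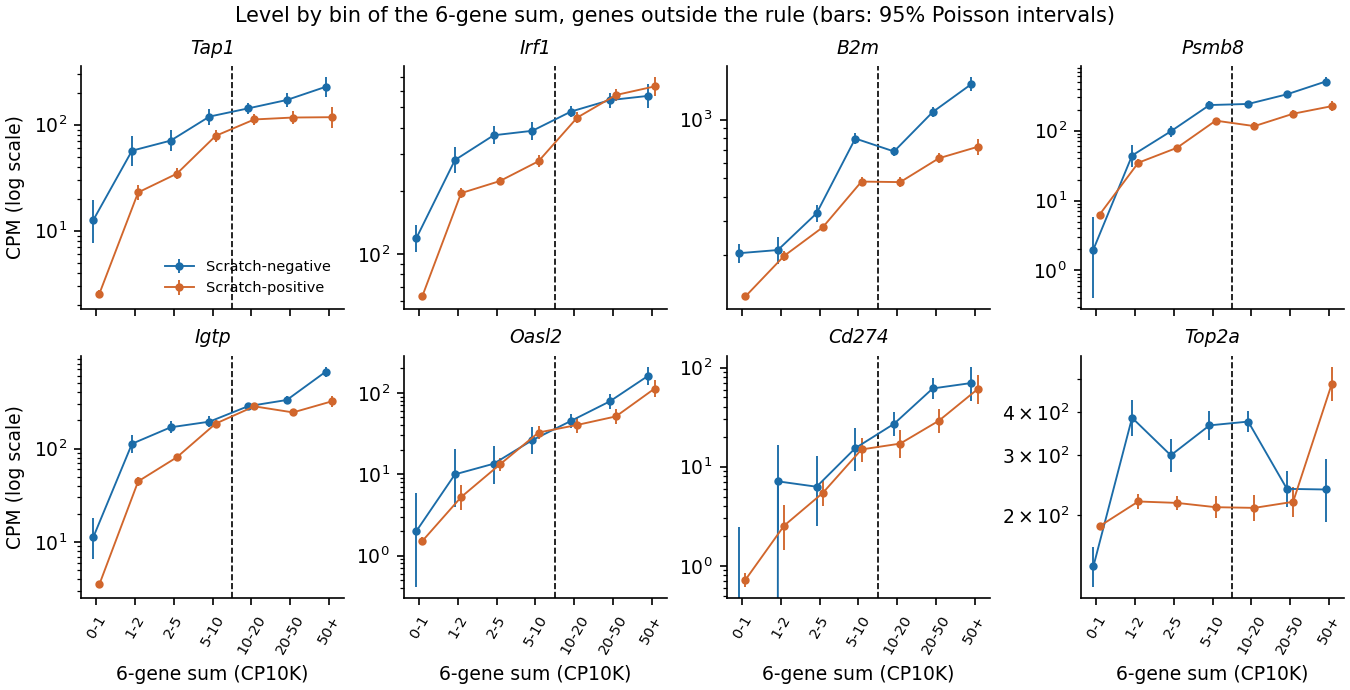
Level (CPM, log scale) of 8 genes outside the rule by bin of the 6-gene sum (CP10K) in carcinoma cells of both libraries, with exact 95% Poisson intervals and the cut dashed. Irf1 reaches 566 and 628 CPM and Cd274 69.8 and 60.5 CPM in the top bin, and Top2a, a proliferation gene, is at 238 CPM in scratch-negative and 484 CPM in scratch-positive there.

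The members were also uneven among themselves. Over members of at least 10000 UMIs (48 and 75 cells), type I genes outside the rule summed to a median of 69.5 CP10K (range 27.0 to 193) in scratch-negative and 52.2 CP10K (15.7 to 155) in scratch-positive. The interferon-low medians were 32.3 and 18.7 CP10K. GTPases summed to 16.3 CP10K (3.77 to 41.8) in scratch-negative and 12.8 CP10K (0.206 to 35.1) in scratch-positive members, against 3.69 and 0 CP10K. The ranges overlapped, since single interferon-low cells reached 30.0 and 31.2 CP10K of GTPases. MHC class I genes summed to 58.6 and 38.3 CP10K in members against 21.6 and 9.39 CP10K. Across members GTPases and MHC class I ran together, with rho of 0.57 over 48 cells and 0.64 over 75, as did GTPases and type I genes (0.58 and 0.45). The 6-gene sum and proliferation had a rho of -0.15 and 0.085. Cells of a library share depth and free RNA, so these are descriptions.

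Set side by side, members of the 2 libraries had closer levels of the interferon lists than interferon-low cells had, whose 6-gene sums were differently spread. The same cut chose the members of both libraries, with median sums of 18.9 and 18.6 CP10K. Their closeness therefore cannot be separated from the selection. Of 7991 genes, 342 (4.28%) were higher and 566 (7.08%) lower in scratch-positive than in scratch-negative members. Type I genes outside the rule had 4 of 39 higher and 7 lower, with a median log2 ratio of -0.20, where all genes had 0.00062. In interferon-low cells the same list had 2 of 40 higher and 29 lower (median -1.07, where all genes had 0.067). The share of all genes that were higher or lower between interferon-low cells was not taken, so their list counts stand without that background. GTPases had 0 of 15 higher and 4 lower among members (-0.42), and 14 of 14 lower among interferon-low cells (-3.47). Within bins of the 6-gene sum the GTPases of interferon-low cells were nearer: Iigp1 was at 0.663 CPM (1 UMI) in scratch-negative and 1.38 CPM in scratch-positive under 1 CP10K, and at 178 and 176 CPM from 5 to 10. Gbp3 was at 0.663 (1 UMI) and 0.808 CPM, then 156 and 79.7 CPM, in the same bins. MHC class I genes had 0 of 16 higher and 7 lower among members (-0.54), and 0 of 18 higher and 16 lower among interferon-low cells (-1.43). Chemokines outside the rule went the other way among members, with 6 of 11 higher and 0 lower (0.82), and 1 of 12 higher and 8 lower among interferon-low cells (-1.02). The 6 were Cxcl9, Ccl5, Ccl7, Cxcl2, Cxcl3 and Cxcl12, of which Cxcl3 also went from 18.1 to 2.40 CPM in scratch-positive without the immune-gene barcodes. The median of 0.82 was 0.088 with a cut of 5 CP10K and 0.17 with at least 20 CP10K of keratin. The change of direction between the 2 cell groups was not tested.

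**Figure D4:**
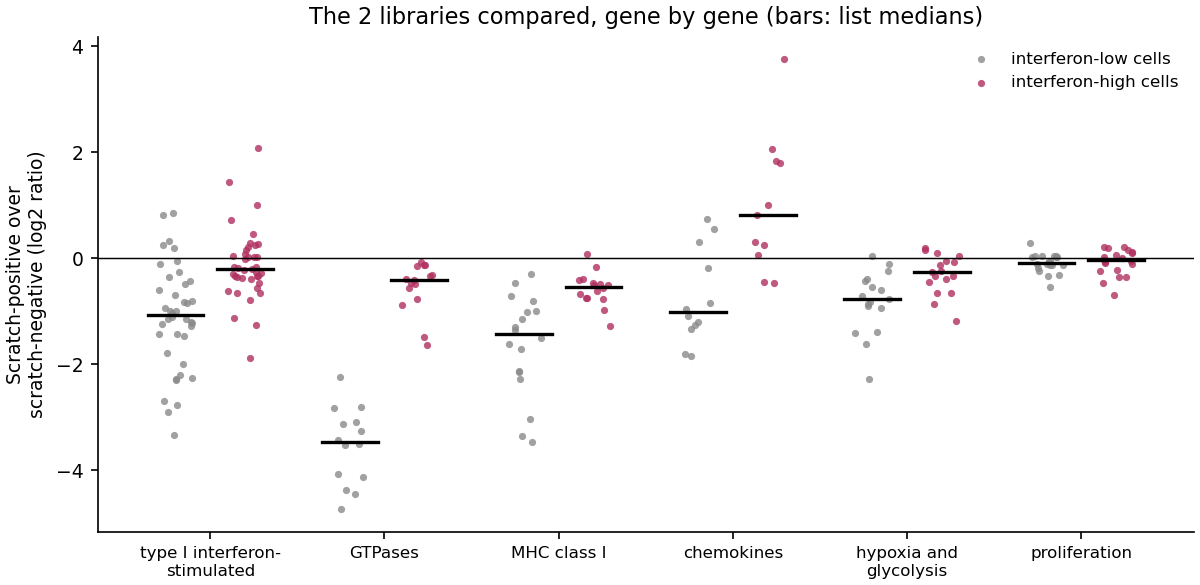
Log2 ratio of scratch-positive over scratch-negative for single genes of 6 lists, in interferon-low (grey) and interferon-high (red) carcinoma cells, with list medians as black bars. GTPases sit at a median of -3.47 in interferon-low and -0.42 in interferon-high cells, and chemokines move from -1.02 to 0.82. Interferon-high cells of both libraries passed the same cut.

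By rank, the genes higher in scratch-positive members included several with few cells behind them. Sprr1a, a cornified envelope precursor, was at 1.98 CPM in scratch-negative and 20.2 CPM in scratch-positive members, in 10 of 95 cells with 42.6% of UMIs in 1, and its log2 ratio of 3.28 was -0.042 with a cut of 5 CP10K. Csf3 (G-CSF) was at 83.3 CPM in scratch-negative and 215 CPM in scratch-positive members, 2.58-fold (2.27 to 2.95), and at 217 CPM without the immune-gene barcodes. Tnnt2 (3.15-fold), Dusp5, a MAP kinase phosphatase (2.95-fold), Cited2, a transcriptional coregulator (2.51-fold), and the sterol synthesis enzymes Acat2 (2.70-fold) and Msmo1 (2.57-fold) were spread over 53 to 75 members. Trim30a, an interferon-induced ubiquitin ligase, was at 6.78 and 18.5 CPM. Gstm1, Porcn and Alcam were 2.53-, 2.32- and 2.31-fold higher.

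The genes lower in scratch-positive members were not all of 1 kind. Some differed as much in interferon-low cells of the same libraries. Nme2 (94.9 and 14.2 CPM in members, 81.2 and 16.7 CPM in interferon-low cells), Grcc10 (62.7 and 15.7 CPM, then 65.6 and 17.2 CPM), the heat shock gene Hspa1b (169 and 37.9 CPM, then 143 and 35.5 CPM) and the histone Hist1h2ap (1497 and 244 CPM, then 1169 and 162 CPM) were of this kind. In barcodes with a Ptprc UMI, Hist1h2ap was at 2004 and 247 CPM. Prl2c3 was at 420 and 79.0 CPM in members and 632 and 68.3 CPM in interferon-low cells. Others rested on few cells: 1 scratch-negative member held 85.1% of the Krt15 UMIs, and Krt15 was at 47.4 CPM with it, 7.13 CPM without it, and 5.81 CPM in scratch-positive members. For Dqx1 1 cell held 71.7% and the level without it was 7.64 CPM, against 26.0 CPM with it and 1.72 CPM in scratch-positive members. Slurp1 (22.6 and 4.73 CPM) had 43.8% of its scratch-negative UMIs in 1 cell. Aqp1, a water channel (22.6 and 6.03 CPM), and Gbp8 did not rest on few cells and were spread over 35 and 28 scratch-negative members. Hist1h2ae was at 448 and 146 CPM. In Cd274 the members differed 1.56-fold (1.22 to 1.99), with the lower level in scratch-positive.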

How the data were processed

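Single-cell RNA was measured with 10x 3′ v3.1 chemistry in 3 libraries, 1 a group. The authors deposited raw UMI counts per gene and barcode for 31053 genes. The file headers name Cell Ranger 6.1.2 as their source, and the submitters' processing notes name mm10. The libraries held 100089008 (control), 167623741 (scratch-negative) and 395654008 (scratch-positive) counts, with medians of 9078, 11817 and 38658 UMIs per kept barcode. Reads that fit several near-identical genes may be lost or split, which touches GTPases and MHC genes.

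Members were chosen as the report states. Counts were summed over the cells of a group and given as CPM with exact Poisson intervals. Ratios have exact conditional binomial intervals, and log2 ratios add 0.5 UMI scaled to group size. All intervals cover counting error only. With 1 library a group and a contrast the rule used, no p-value exists. Named genes needed 100 UMIs in each comparison: the 15 highest and 10 lowest by the smaller of the 2 libraries' ratios, and the 12 highest and 12 lowest between libraries, with at least 0.5 times the level of immune and stromal barcodes. From each list up to 8 genes were named by level or ratio. Of 474 list genes 465 were in the files. The members and lists were chosen with earlier results of these data known. No doublet caller was used in the values reported. Alternatives were other cuts (5 and 20 CP10K), a keratin minimum of 20 CP10K, 1000 genes a barcode, barcodes with immune genes or high Scrublet scores removed, cells weighted equally, no UMI minimum, centring and thinning to 5000 UMIs. Gene positions are from GENCODE release M21. Scripts used scanpy 1.11.5 for Scrublet, matplotlib 3.10.9, pandas 2.3.3, scipy 1.17.1 and numpy 2.4.6 under Python 3.11.15 and were tested on simulated data. Some items are not reported here.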

Additional observations from a re-analysis of the deposited data

Results flagged for a closer look

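The ratio of interferon-high over interferon-low cells went opposite ways in the 2 libraries for 1 gene among the lists and named genes with at least 100 UMIs in each. Ptges, which makes prostaglandin E2, had a log2 ratio of -0.78 in scratch-negative (10.4 against 18.04 CPM) and 0.88 in scratch-positive (14.2 against 7.71 CPM). The counting intervals of both ratios left out 1, with 37 and 66 UMIs in members. The difference between the libraries was not tested.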

How the results depend on the processing

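With 1 library a group, these values hold for these libraries, and small counts limit the scratch-negative cells. The shares moved with the cut, to 55.9% and 4.52% of carcinoma cells at 5 CP10K and to 20.3% and 1.36% at 20 CP10K. With Krt8 plus Krt18 of at least 20 CP10K the scratch-positive share was 1.72%. Weighting each cell equally gave 1118 genes higher and 497 lower in scratch-negative, 1997 and 2331 in scratch-positive, and 1054 and 1214 between the members of the 2 libraries. With no UMI minimum the counts were 2700 and 2206, 2153 and 6374, and 2076 and 2703. Genes lower in scratch-negative numbered 448 at a cut of 20 CP10K and 363 under the stricter keratin gate. Alternatives chosen after seeing the data were a minimum of 10000 UMIs a cell, leaving out the member with most UMIs of a gene, and 20 UMIs expected in the smaller group. The last gave 347 genes higher and 167 lower in scratch-positive. Removing shallow, immune-gene or high-Scrublet barcodes kept every one of these shares and counts within its interval or within 1.5 times. Single genes changed sign in 4 of 887 comparisons and otherwise left their counting interval in 173, among them 47 of 90 with cells weighted equally and 19 of 89 without the top member. That member was taken only from the interferon-high cells, or between libraries only from the scratch-positive members. For genes lower there, this alternative cannot show whether 1 cell of the other group carried its level. Csf2 in scratch-positive was at a log2 ratio of 0.23 with a cut of 5 CP10K, and Acsbg1 there at 0.39 with cells weighted equally. Between libraries, Sprr1a was at -0.042 with a cut of 5 CP10K and Ifit3 at -0.20 under the stricter keratin gate. The cause of these moves was not tested. List medians moved by more than 1.5-fold in 19 of 567 comparisons, and 0 changed sign among those past 1.5-fold. No paired analysis was possible because each group has 1 library.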

Other observations

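Haemoglobin and other red-cell transcripts were unevenly spread among carcinoma cells. The 6 erythroid markers summed to 5.93 CPM in scratch-negative members and 365 CPM in interferon-low cells of that library, and to 0.430 and 11.0 CPM in scratch-positive. Osteoclast markers summed to 13.0 and 13.8 CPM in scratch-negative and to 65.4 and 126 CPM in scratch-positive, members first.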
